A study of Schizosaccharomyces pombe with 2 samples.

Results

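In 270 of the 817 introns with a located branch point, the leading branch sequence lay 9 nt or less from the 3′ splice site. These introns were chosen by the distance of the branch entry with most reads, and at equal reads by the first entry listed. They make up 33.0% of the table (Wilson 95% interval 29.9 to 36.3) and lie in 260 of its 726 genes. The distance counts the bases that follow the 7-nt branch sequence up to the last base of the intron. The circular RNA came from fission yeast (Schizosaccharomyces pombe), strain 972 h- with the genotype delta-dbr1, pooled over 41 growth and treatment conditions. Its circular fraction was cut from a 2-dimensional gel, with 7.5% acrylamide first and 15% in the second dimension for the short run that names the branch table. The second, long run used 20% acrylamide in the second dimension and enters only through the table of skipped exons. The deletion removes the debranching enzyme from all cells, there was no strain with the gene for comparison, and neither pool was repeated.

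Splicing removes an intron in a pair of linked reactions. An adenosine near the end of the intron, the branch point, first attacks the 5′ splice site and closes the intron into a lariat, and the exon ends are then joined at the AG of the 3′ splice site. The U2 snRNA pairs with the bases around the branch point and leaves the branch adenosine unpaired. Dbr1 normally opens the lariat, so cells without it keep excised introns as circles, and a read that runs across the branch shows which base was used. In the 7-nt sequences of the table that base is taken to be position 6.

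A set of 5 close introns, among those with most branch reads, shows how the branch sequence and the intron end sit together. The last 40 bases of each intron are given in the ASM294v3 assembly, 5′ to 3′, with the leading branch sequence in capitals.
rps13 intron 1 (chr1:2746336-2746375, minus strand): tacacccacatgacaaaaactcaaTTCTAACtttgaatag
put2 intron 1 (chr2:2325194-2325233, plus strand): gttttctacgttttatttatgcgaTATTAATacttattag
ero11 intron 1 (chr2:2720591-2720630, minus strand): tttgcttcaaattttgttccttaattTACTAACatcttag
rpb1 intron 5 (chr2:1591615-1591654, plus strand): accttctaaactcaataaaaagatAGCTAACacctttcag
cyt1 intron 1 (chr2:2073427-2073466, plus strand): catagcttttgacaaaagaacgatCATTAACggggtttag
In rps13 and put2, 9 bases separate the branch sequence from the exon, and in ero11 the gap is 7 bases.

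The number of introns rose without a gap from the closest branch points to the most frequent distance just outside the limit. The listed distance was 5 nt in 1 intron, 6 nt in 18, 7 nt in 37, 8 nt in 93 and 9 nt in 121. Just outside the limit, 134 introns lay at 10 nt, and 103 at 11 nt. Introns at 9 nt had a median of 5 branch reads and a median length of 106 nt, and introns at 10 nt had medians of 4.5 reads and 108 nt. Cytosine at position 3 stood in 80.2% of introns at 9 nt and in 81.3% at 10 nt. The introns with most branch reads at 10 nt were intron 2 of nip7 with 153, intron 3 of ilv6 with 151 and intron 1 of rid1 with 119.

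**Figure D1:**
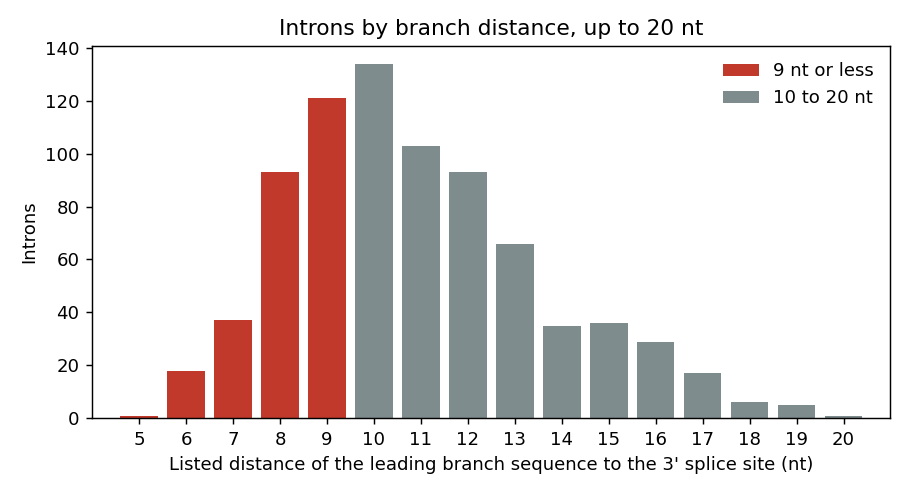
Number of introns (vertical axis) at each listed distance from the leading branch sequence to the 3′ splice site in nt (horizontal axis, up to 20 nt). Bars at 9 nt or less are the 270 close introns, with 121 at 9 nt, beside 134 introns at 10 nt.

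The letters of the close branch sequences had shares near those of the rest of the table, and for every letter and position the 95% intervals of both sets overlapped. Position 4 was T in 270 of 270 close introns (Wilson 95% interval 98.6 to 100%) and in 538 of the 547 others (98.4%). Position 6 was A in all 817 introns. Further listed sequences unlike the leading ones, such as ACAAAAA and GCAGAAG in close introns, also have A there. Whether the listing admits only A at that position was not stated, so this letter may be fixed in advance. Position 5 was A in 254 close introns (94.1%, 90.6 to 96.3) and in 498 others (91.0%, 88.4 to 93.2). Position 3 was C in 223 close introns (82.6%, 77.6 to 86.6) and in 448 others (81.9%, 78.5 to 84.9). Position 7 was C in 200 close introns (74.1%, 68.5 to 78.9) and in 399 others (72.9%, 69.1 to 76.5). No difference was tested, since all reads come from 1 library. The intervals treat introns as independent and cover counting error only.

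The outer positions were looser in both sets. Position 1 was T in 185 close introns (68.5%) and in 346 others (63.3%), and it was A in 43 close introns (15.9%, 12.0 to 20.8) and in 123 others (22.5%, 19.2 to 26.2). Position 2 was A in 155 close introns (57.4%) and G in 70 (25.9%), against 55.6% and 25.4% in the others. Some rare letters had lower counts among the close introns and some did not. A at position 7 occurred in 0 of 270 close introns and in 12 of 547 others (2.19%), and T at position 5 in 1 and 17. G at position 5 occurred in 14 close introns (5.19%) and 26 others (4.75%), and G at position 7 in 1 and 2. The count of 0 allows a share of up to 1.40% by its Wilson interval, and the interval of the others begins at 1.26%.

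**Figure D2:**
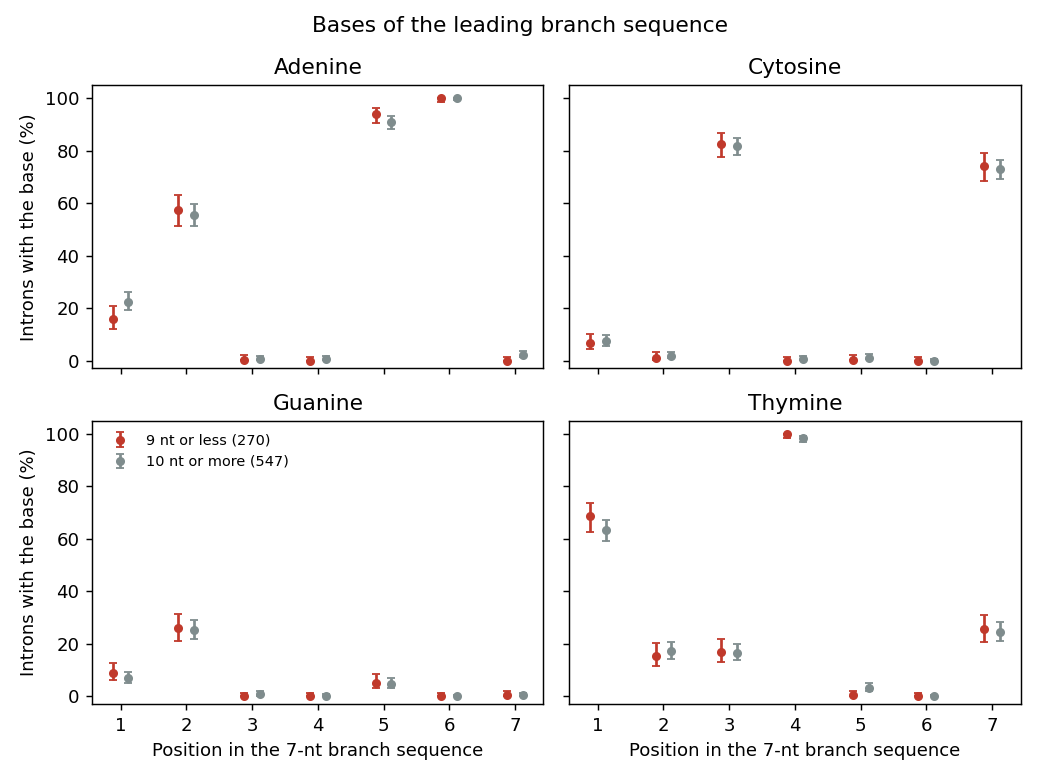
Share of introns with each base (vertical axis, %) at positions 1 to 7 of the leading branch sequence (horizontal axis), 1 panel per base. Points are the 270 close introns and the 547 others, with Wilson 95% intervals. The intervals of both sets overlap in every panel and at every position, as for cytosine at position 3 with 82.6% and 81.9%.

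Among whole sequences, TACTAAC led the close introns with 48 (17.8%, 13.7 to 22.8), against 88 others (16.1%, 13.2 to 19.4). TACTAAT followed with 27, then TGCTAAC with 22 and both TATTAAC and TTCTAAC with 21. In all, the close introns used 45 different leading sequences and the others 77. AGCTAAC stood in 16 close introns (5.93%) and 19 others (3.47%). AACTAAC stood in 9 close introns (3.33%) and 36 others (6.58%). Close introns with a base other than A at position 5 numbered 16, of which 14 had G, and their median was 2.5 branch reads. The highest of the 16 was intron 1 of naa30, the catalytic subunit gene of an N-terminal acetyltransferase, with 40 reads at TACTGAC.

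The 19 introns at 5 or 6 nt more often had T after the branch base than the rest of the close introns. Those with 20 or more branch reads are shown, together with intron 2 of coq4, the only intron at 5 nt.
coq4 intron 2 (chr1:925858-925897, minus strand): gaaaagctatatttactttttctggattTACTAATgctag
rmt1 intron 3 (chr1:5017253-5017292, minus strand): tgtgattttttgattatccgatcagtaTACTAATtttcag
ubp8 intron 2 (chr1:580984-581023, minus strand): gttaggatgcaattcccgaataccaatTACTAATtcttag
rex2 intron 1 (chr2:4073831-4073870, plus strand): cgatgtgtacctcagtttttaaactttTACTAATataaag
yih1 intron 1 (chr1:4005114-4005153, plus strand): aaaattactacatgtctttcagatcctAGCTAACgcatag
psg2 intron 1 (chr3:527711-527750, plus strand): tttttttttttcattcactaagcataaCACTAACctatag
wbp1 intron 3 (chr3:1348239-1348278, minus strand): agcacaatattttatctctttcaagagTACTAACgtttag
rec11 intron 2 (chr3:1226397-1226436, minus strand): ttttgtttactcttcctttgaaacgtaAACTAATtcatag
Position 7 was T in 13 of these 19 introns (68.4%, Wilson 95% interval 46.0 to 84.6), in 56 of 251 introns at 7 to 9 nt (22.3%, 17.6 to 27.9) and in 134 of 547 at 10 nt or more (24.5%, 21.1 to 28.3). The few introns beyond 20 nt also had a high share, 45.5% of 22 (26.9 to 65.3). Positions 3 to 6 read CTAA in all 19. TACTAAT was the leading sequence of 8 of them and TACTAAC of 2, whereas TACTAAC led over the close introns as a whole. Among introns with 5 or more branch reads, position 7 was T in 7 of 10 at 5 or 6 nt, in 34 of 125 at 7 to 9 nt (27.2%) and in 73 of 272 further away (26.8%). Intron 3 of vma2, 1 of the 13, is counted at 6 nt only by the choice at equal reads. The division at 6 nt was made after the letters were seen, so these values describe the 19 introns and carry no test.

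**Figure D3:**
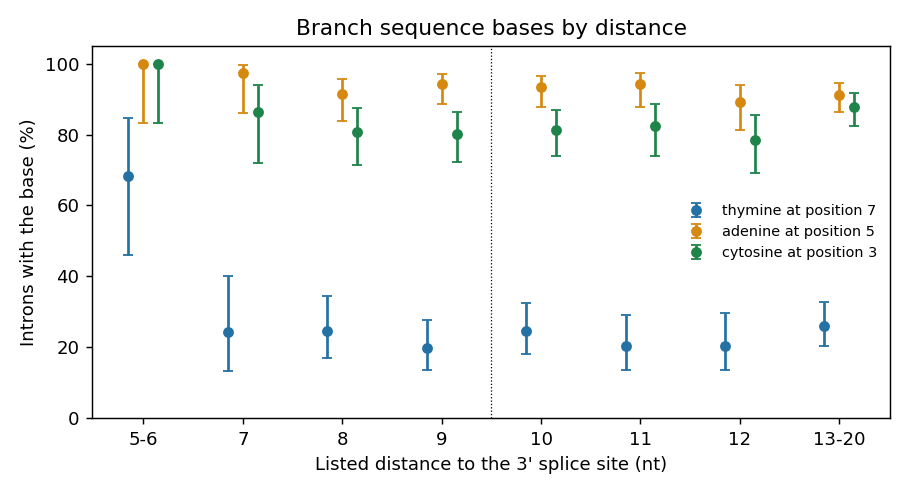
Share of introns (vertical axis, %) with thymine at position 7, adenine at position 5 and cytosine at position 3 of the leading branch sequence, by listed distance in nt (horizontal axis), with Wilson 95% intervals. Thymine at position 7 is at 68.4% in the 19 introns at 5 or 6 nt and at 19.8% to 26.2% at every other distance shown, and the dotted line marks the limit of 9 nt.

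The host genes of these 19 introns had varied roles. The highest branch counts were 47 reads for intron 3 of rmt1, a protein arginine methyltransferase gene, and 33 for intron 2 of ubp8, a deubiquitinase gene of the SAGA complex. Intron 1 of yih1 and intron 1 of rex2, an RNA exonuclease gene, had 32 reads each. Intron 1 of psg2 had 29 reads, intron 3 of wbp1, an oligosaccharyltransferase subunit gene, had 25, and intron 2 of rec11, a meiotic cohesin gene, had 21. The remaining 12 introns had 15 reads or fewer. They were intron 1 of mus81 (a structure-specific nuclease gene) with 15, of dbl5 with 6, of fta3 (a kinetochore gene) with 4, of SPBC19C2.10 with 3 and of tim11 (an ATP synthase subunit gene) with 2. Intron 2 of cdc4 (the myosin light chain of the division ring) had 5 reads, intron 2 of coq4 (ubiquinone synthesis) had 3, and intron 3 of vma2 (a vacuolar ATPase subunit gene) had 2. The reads of vma2 were tied, with 1 at 6 nt and 1 at 12 nt. That intron is in this group only because the first entry listed was taken. Intron 1 of lsm5, of gna1 and of pcf2 and intron 3 of pan2 had 1 read each, so their position rests on a single read.

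Between the branch sequence and the AG, close introns had a base composition near that of the rest. T made up 47.1% of their 1665 bases there (Wilson 95% interval 44.8 to 49.5), A 29.1%, C 13.3% and G 10.5%. That interval treats single bases as independent, although several come from each intron, so it does not measure the spread between introns. In the other introns, T made up 46.8%, A 27.6%, C 14.5% and G 11.1% of 7686 bases. Of these bases, 5403 lay in the 525 other introns up to 20 nt, where T made up 49.2%. The rest came from the few introns with longer gaps. TAG ended 189 close introns (70.0%, 64.3 to 75.2) and 408 others (74.6%, 70.8 to 78.1). CAG ended 55 close introns (20.4%) and 96 others (17.6%), and AAG ended 26 (9.63%) and 43 (7.86%). At the other end of the intron, the first 6 bases were GTAAGT in 83 close introns (30.7%) and 182 others (33.3%), and GTATGT in 69 (25.6%) and 139 (25.4%). The 15 bases before the branch sequence had a median of 40% T in both sets.

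An earlier AG stood inside that short gap in 43 close introns (15.9%, 12.0 to 20.8), before the AG that the annotation uses. The 4 with most branch reads, chosen after their values were seen, are shown with the branch sequence in capitals.
rio2 intron 1 (chr2:2924193-2924232, plus strand): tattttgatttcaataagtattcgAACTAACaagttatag
rps29 intron 2 (chr2:516687-516726, plus strand): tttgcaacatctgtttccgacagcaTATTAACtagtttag
mpc1 intron 2 (chr3:200325-200364, plus strand): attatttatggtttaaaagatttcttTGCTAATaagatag
sss1 intron 1 (chr1:756882-756921, minus strand): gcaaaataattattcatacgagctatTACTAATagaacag
In intron 1 of rio2, a protein kinase gene, the earlier AG begins at base 2 after the branch sequence, and the intron had 153 branch reads. Intron 2 of rps29, a ribosomal protein gene, and intron 2 of mpc1 also have it at base 2, with 92 and 67 branch reads. In intron 1 of sss1, a subunit gene of the endoplasmic reticulum translocon, the earlier AG follows the branch sequence directly, and the intron had 59 branch reads. The AG followed directly in 13 of the 43 introns, and it began within the first 3 bases in 35. The 43 introns had a median of 2 branch reads, and 6 had 20 or more. Of the other introns, 83 (15.2%) held an earlier AG, but their gaps are longer and offer more places for one. Among the 525 other introns up to 20 nt the share was 12.6%, inside the interval of the close introns. Reads across the branch do not show which AG was joined to the exon, so use of the earlier AG was not tested.

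A further branch-like motif upstream was uncommon. The motif searched was CTAAC with its variants that have T as the last letter, G in place of the A just before the branch base, or both. Read on the intron's own strand and ending before the branch sequence, it stood within 40 nt upstream of it in 23 close introns (8.52%, Wilson 95% interval 5.74 to 12.5). The same search found it in 31 others (5.67%, 4.02 to 7.93). The nearest such match was a listed branch position in 0 of the 23 close introns. Intron 2 of lig4, a DNA ligase gene, has one 7 nt upstream and had 28 branch reads, all at the leading position. Upstream matches that overlap the branch sequence were outside this search, and some of those were listed branch positions. They include TACTAAT with 7 of 19 reads in intron 2 of SPAC6G9.01c and AACTAAC with 3 of 8 reads in intron 1 of scd1. At positions 3 to 7 of the leading sequence itself, the motif stood in 220 close introns (81.5%, 76.4 to 85.7) and in 424 others (77.5%, 73.8 to 80.8). A match is a description of letters only.

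Branch reads had similar medians and quartiles in close introns and in the rest. Together the 270 introns had 6280 of the 21802 branch reads, or 28.8%. Their median was 4.5 reads (order-statistic 95% interval 3 to 6, upper quartile 17, highest 849), and that of the others was 4 (4 to 6, upper quartile 15, highest 1822). A single read placed the branch in 71 close introns (26.3%) and in 119 others (21.8%), and 62 close introns (23.0%) and 113 others (20.7%) had 20 or more. Read counts also chose the leading position, so these values are a description.

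The 10 highest close introns held 45.7% of the branch reads of the set. Intron 1 of rps13, a small-subunit ribosomal protein gene, led with 849 branch reads at 9 nt. Intron 1 of put2, which encodes an enzyme of proline breakdown, had 452. Intron 1 of ero11, an oxidase gene of disulfide formation, had 208 branch reads at 7 nt, and intron 5 of rpb1, the largest subunit gene of RNA polymerase II, had 205 at 9 nt. Intron 1 of cyt1, the cytochrome c1 gene, had 184. Lower counts were found in intron 1 of rio2 with 153, of SPAC5D6.04 with 152 and of kei1, a subunit gene of sphingolipid synthesis, with 143. Intron 3 of idh2, a citric acid cycle gene, had 141, intron 1 of pcs60, an acyl-CoA ligase gene, 127, and intron 1 of met14, a sulfate assimilation gene, 124. Of these 11 introns, 8 had the listed distance of 9 nt, kei1 and ero11 had 7 nt, and idh2 had 8 nt.

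Reads over the whole intron come from a separate table and did not enter the rule. That table listed 248 of the 270 close introns (91.9%) and 512 of the 547 others (93.6%). Per nt of intron, close introns had a median of 14.8 peak reads (order-statistic 95% interval 10.02 to 19.0) and the others 12.8 (10.1 to 16.0). Branch reads per 1000 peak reads had a median of 4.75 (3.47 to 6.71) in close introns and 4.66 (3.68 to 5.77) in the others. The intervals overlapped for both measures. Of the 22 close introns without a peak, 18 were shorter than 80 nt. The highest branch count among the 22 was 44 reads, in intron 4 of rmt1.

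Single close introns ranged widely in that ratio. Intron 1 of rps13 had the most peak reads, 586655 over 103 nt, and 1.45 branch reads per 1000 of them. Intron 1 of ero11 had 305702 peak reads over 167 nt and a ratio of 0.680. Intron 3 of wbp1, with 57854 peak reads over 130 nt, intron 1 of fta3, with 53961 over 157 nt, and intron 2 of ggc1, a guanine nucleotide transporter gene, with 52650 over 99 nt, had ratios of 0.432, 0.0741 and 0.323. High ratios included 229 branch reads per 1000 peak reads in intron 1 of kei1. Intron 1 of hpz1 had 231, with only 6 branch reads and 26 peak reads. Intron 1 of rpl3602, a ribosomal protein gene, had 22 branch reads and 18 peak reads over 75 nt, so the branch table counted reads that its peak count did not hold.

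**Figure D4:**
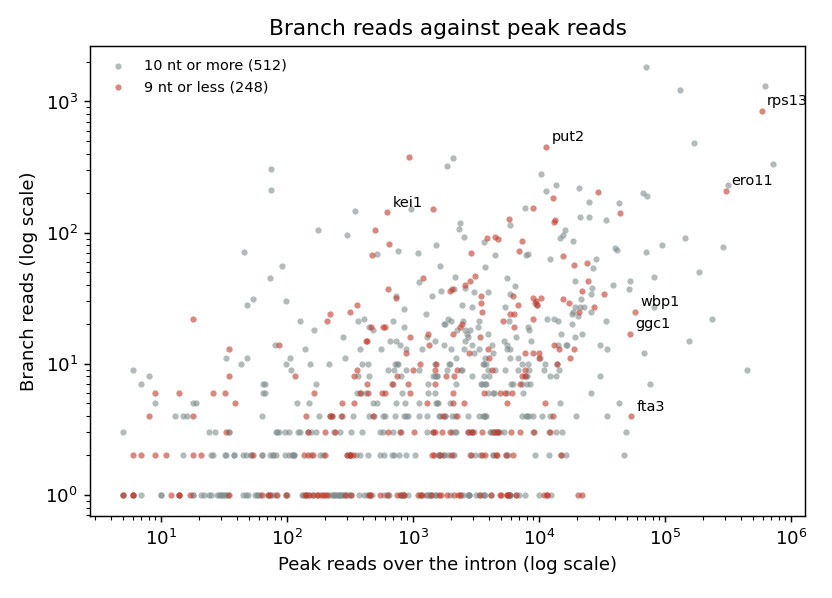
Branch reads (vertical axis, log scale) against peak reads over the intron (horizontal axis, log scale) for the 248 close introns and 512 others listed in both tables, 1 point per intron. The close introns lie through the whole cloud, and examples are fta3 with 4 branch reads at 53961 peak reads and kei1 with 143 at 624.

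Close introns had a slightly lower median length, with overlapping intervals. Their median length was 106 nt (order-statistic 95% interval 99 to 112, range 57 to 194), and that of the others was 112 nt (108 to 117, range 60 to 423). No close intron was longer than 200 nt, whereas 16 others were. An intron must be longer than its branch distance, which reached 277 nt in the others, so the rule itself bears on this contrast. Introns under 80 nt made up 37 close introns (13.7%) and 44 others (8.04%). The first intron of a gene accounted for 130 close introns (48.1%, 42.3 to 54.1) and 303 others (55.4%, 51.2 to 59.5). The only intron of a gene accounted for 65 (24.1%, 19.4 to 29.5) and 170 (31.1%, 27.3 to 35.1).

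Most close introns had a single listed branch position. A second position was listed in 53 of 270 close introns (19.6%, Wilson 95% interval 15.3 to 24.8) and in 114 of 547 others (20.8%, 17.6 to 24.4). With 20 or more branch reads, where a minor position can be seen, it was listed in 33 of 62 close introns (53.2%, 41.0 to 65.1) and in 66 of 113 others (58.4%, 49.2 to 67.1). The leading position still held 6147 of 6280 reads in close introns (97.9%) and 15220 of 15522 in the others (98.1%).

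The 62 further positions of close introns lay mostly 1 nt upstream of the leading one, at the A of position 5. That was so for 35 of the 62 positions (56.5%) and for 82 of 132 in the other introns (62.1%). In rps13 this neighbour had 18 of 849 reads. Whether these reads mark use of the neighbouring A was not tested. If the listing admits only A as the branch base, such a neighbour can be listed only where position 5 is A. A further 9 positions lay 4 nt upstream, at base 2 of the leading sequence, where the last 3 letters of the further sequence are the first 3 of the leading one. Only 4 lay downstream. Without the positions 1 nt away, 12 of 62 close introns with 20 or more reads (19.4%) and 22 of 113 others (19.5%) kept a second position.

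**Figure D5:**
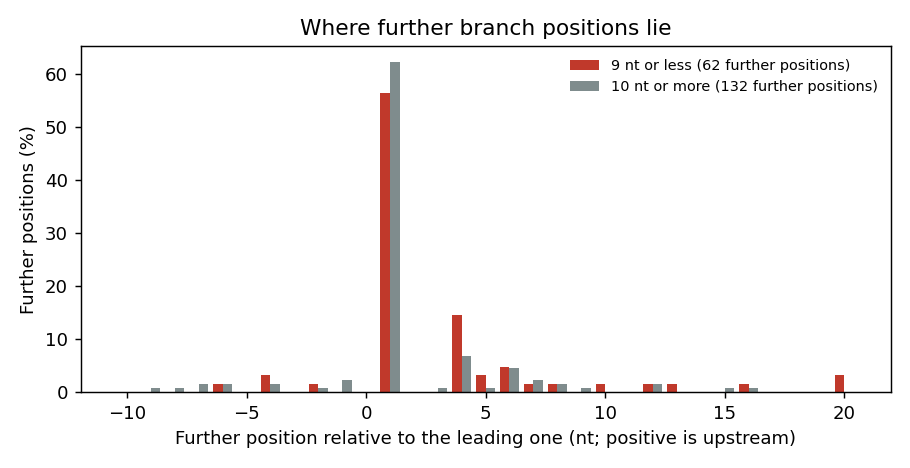
Share of further branch positions (vertical axis, %) by their offset from the leading position in nt (horizontal axis, positive is upstream), for 62 positions of close introns and 132 of the others. The offset of 1 nt holds 56.5% and 62.1% of them, and offsets beyond the axis, 1 of them in a close intron, are not drawn.

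The further positions with most reads away from that neighbour lay in 3 introns, given here with the leading sequence in capitals.
SPAC1B3.02c intron 3 (chr1:4929101-4929140, minus strand): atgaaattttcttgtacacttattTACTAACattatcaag
SPAC6G9.01c intron 2 (chr1:3241571-3241610, minus strand): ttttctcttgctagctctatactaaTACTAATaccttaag
cqd2 intron 2 (chr2:2240397-2240436, plus strand): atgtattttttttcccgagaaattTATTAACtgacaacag
In intron 3 of SPAC1B3.02c, annotated as an Elf1 family elongation factor gene, 60 of 70 reads lay at TACTAAC and 8 at TATTTAC, 4 nt upstream, with both sharing the letters TAC. In intron 2 of SPAC6G9.01c, TACTAAT stands in an overlapping tandem, and 12 of 19 reads lay at the copy 8 nt from the splice site and 7 at the copy 14 nt away. In intron 2 of cqd2, 29 of 36 reads lay at TATTAAC and 7 at AACTGAC, which overlaps it and lies 5 nt from the splice site (leading share 80.6%, Wilson 95% interval 65.0 to 90.2). Of the close introns with 20 or more reads, the next lowest leading shares after cqd2 and SPAC1B3.02c (85.7%) were 91.7% in intron 1 of SPBP35G2.04c, 23 of 25 reads in intron 3 of wbp1 and 93.9% in intron 3 of pet801. In the reverse direction, 7 of the other introns had a further position within 9 nt, with 12 reads in all. The highest was intron 2 of nup37, a nuclear pore gene, with 4 reads at GATTAAC, 9 nt from the splice site. These tie with the 4 reads of its leading AACTAAT at 16 nt. That intron is outside the close set only because the first entry listed was taken.

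Of the 84 genes with several introns in the table, 39 had no close intron, 36 had close introns and others, and 9 had close introns only. The gene hrb1, for an RNA-binding export factor, had 3 close introns, at 7, 8 and 9 nt with 4, 2 and 9 branch reads. Genes with a pair included SPAC5D6.04, hpz1, mpc1, pim1, rec11, rmt1 and vps4. In rmt1, intron 3 had 47 branch reads at 6 nt and intron 4 had 44 at 7 nt. In mpc1, intron 2 had 67 reads at 7 nt and intron 3 had 3 at 8 nt. In rec11, intron 2 had 21 at 6 nt and intron 8 had 1 at 9 nt. In pim1, a Ran exchange factor gene, intron 2 had 12 at 7 nt and intron 1 had 1 at 8 nt. In vps4, an ATPase gene of endosomal sorting, intron 2 had 6 at 7 nt and intron 1 had 1 at 8 nt. The gene hpz1 had 6 reads at 8 nt in intron 1 and 4 at 9 nt in intron 2. SPAC5D6.04 had 152 at 9 nt in intron 1 and 1 at 7 nt in intron 3, which at 57 nt was the shortest close intron. By contrast, idh2 had 141 reads at 8 nt in intron 3 and 1 read at 14 nt in intron 1.

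Host genes were counted in 8 lists matched by gene name, beside the 33.0% of all introns that were close. Of 31 ribosomal protein introns in the table, 6 were close (19.4%), led by rps13 with 849 branch reads and intron 2 of rps29 with 92. Of 6 introns of transcription genes, 5 were close, namely intron 5 of rpb1, intron 2 of rpb9 (91 reads), intron 2 of taf2 (66), intron 1 of rpa43 (43) and intron 3 of rpb4 (1). These encode subunits of RNA polymerases I and II and a TFIID subunit, and the sixth was intron 2 of brf1 at 10 nt. The match by symbol left out many factors of the same machinery. With introns added by the annotated product, a choice made after the values were seen, 11 of 24 were close (45.8%, Wilson 95% interval 27.9 to 64.9). Of the 18 added introns, 6 were close (33.3%), among them intron 1 of rrn11, an RNA polymerase I factor gene, with 89 reads at 8 nt. Intron 1 of rrn3, a gene of the same polymerase, had 107 reads at 10 nt. Of 14 splicing gene introns, 6 were close, led by intron 4 of lsm3, a U6-associated ring subunit gene, with 32 reads and intron 4 of prp39, a U1 snRNP gene, with 16. This list too missed genes by their symbols. Intron 3 of smd2 lay at 10 nt, intron 2 of sme1 at 12 nt and intron 1 of smf1 at 13 nt. Intron 1 of snu13 lay at 8 nt, and introns 6 and 7 of srp2 at 7 and 11 nt. Of 25 proteasome and ubiquitin introns, 10 were close, led by intron 2 of ubp5, a deubiquitinase gene, with 45 reads and intron 2 of ubp8 with 33. The lists are small, and no enrichment was tested.

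Counts for the other lists follow. Of 27 small GTPase and vesicle introns, 9 were close (33.3%), among them intron 2 of vps4 with 6 reads. Of 16 introns of mitochondrial and respiratory genes, 6 were close (37.5%), led by cyt1 and by intron 5 of cox13, a cytochrome oxidase subunit gene, with 28 reads. Of 10 cytoskeleton introns, 4 were close, led by intron 3 of arp8, which encodes an actin-like subunit of a chromatin remodeller and not a cytoskeletal protein, with 4 reads and intron 2 of arc5, an Arp2/3 subunit gene, with 2. Of 21 meiosis and mating introns, 9 were close (42.9%), led by intron 2 of rec11 with 21 reads and intron 1 of mam33 with 7. The gene mam33 was taken by its name alone, and its annotation, Mam33 family protein, names no role in mating.

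Of 5 circles with a skipped exon beside an intron of the table, 3 lay beside a close one, where 33.0% of all introns were close. The circles are few, and whether the listed branch points closed them was not tested. Intron 2 of pwi1 lies just downstream of skipped exon 2, whose circle had 89 reads in the long run, and its own branch at 8 nt rested on 1 read. Intron 1 of nup107, a nuclear pore gene, lies just upstream of a skipped exon 2, with 851 circle reads, and had 1 branch read. Those 851 reads are listed for the short and long runs together and are not divided between them. The introns that were not close each lay just upstream of the skipped exon. They were intron 1 of lat1 at 10 nt, beside a circle with 307 reads, and intron 2 of ubc15 at 13 nt, beside one with 158. Introns that the authors added to the annotation were listed in some host genes too. The gene spt20, whose intron 3 is close with 8 branch reads, also holds an added intron with a snoRNA in its 3′ untranslated region, with 59282 peak reads.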

How the data were processed

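Circular RNA of dbr1-deleted fission yeast was read in 1 library for the branch and intron tables used here. The deposited branch table holds whole-number read counts per branch sequence and its listed distance, and a second table holds read counts per intron peak, per the file headers. The authors' counts were used as they stand, unscaled. Bowtie 0.12.3 and SAMtools are named in the submitters' processing notes. For peak calling, thresholds and genome build, nothing was stated in the sources used.

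Introns were placed by the peak table (745) or by the ASM294v3 annotation (72), and all 1011 listed sequences lay at their stated distance in that assembly. Gene symbols and products are those of RefSeq. Peak reads were joined by position, and 22 repeated lines were used once. Shares have Wilson 95% intervals and medians exact order-statistic intervals, which cover counting error only, and reads copied by PCR are not independent. The steps were tested on simulated data. No test was run, because there is 1 library. Members, lists and comparisons were chosen with earlier results of these data known. Named introns were the 12 with most branch reads, those at 6 nt or less, the 5 lowest leading shares at 20 or more reads, the 5 with most peak reads, the 3 highest further positions, 2 per list, all in genes with several close introns, and 3 at 10 nt. The introns of 1 gene that this rule names are not reported here. Other introns (naa30, lig4, scd1, nup37, those with an earlier AG or beside a skipped exon, spt20) were chosen after their values were seen. Alternatives changed the distance limit, the minimum reads, the choice at ties, the introns per gene and the length range. Python 3.11.15, numpy 2.4.6, pandas 2.3.3, scipy 1.17.1 and matplotlib 3.10.9 were used.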

Additional observations from a re-analysis of the deposited data

How the results depend on the processing

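The descriptions were recomputed under 142 alternatives. Of these, 121 stayed within the 95% interval of the reported value or, for the number of introns, within 1.5 times. Transcription genes by annotated product, the 1 alternative chosen after seeing the data, gave 45.8% in place of 83.3%. It counts among the 121 only because the interval of 6 introns ran from 43.6 to 97.0%. Some alternatives could not move a value. The second-position share at 20 or more reads rests on the same 62 introns under a minimum of 5. The count of 121 is therefore no measure of stability. The number of close introns was 149 with a limit of 8 nt, 135 with at least 5 branch reads and 62 with at least 20. With a limit of 10 nt it was 404 in place of 270, just inside the bound of 1.5 times. With at least 5 branch reads, close introns had a median of 17 branch reads, 2890 peak reads and 8.12 branch reads per 1000 peak reads, a second position in 36.3% and an earlier AG in 11.9%. With at least 20, these values were 38.5, 6177, 9.28, 53.2% and 9.68%. At that minimum A stood at position 2 in 69.4% and at position 5 in 98.4%, C ended the sequence in 64.5%, TACTAAC led in 27.4%, T made up 50.7% of the gap and 6.45% lay in ribosomal protein genes. A read minimum selects on reads by construction, and the cause of the other shifts was not tested. With a limit of 8 nt the median was 1145.5 peak reads, against 1689 with the limit of 9 nt and 1601.5 in introns at 10 nt or more. Keeping only other introns up to 20 nt gave 49.2% T in their gap. The choice at ties, 1 intron per gene and the range of 80 to 200 nt moved no value out of its interval. Intervals are widest for the 19 introns at 5 or 6 nt, and 71 close introns rest on 1 read. No paired analysis was possible because there is 1 library and no replicate.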
